A study of Mus musculus with 2 samples.

Results

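The replication-dependent histone genes are the clustered genes that supply new histone protein while DNA is copied. They were taken as every gene of the table whose symbol starts with Hist1h, Hist2h, Hist3h or Hist4h, which gave 42 of 19465 genes. All 42 matched a single RefSeq gene through its older symbol: 30 lie on chromosome 13, 9 on chromosome 3, 2 on chromosome 11 and 1 on chromosome 6 (GRCm38.p6, the assembly that mm10 names). They were measured by spatial transcriptomics in skin sections from SKH-1 hairless mice, all female and aged 10 to 12 weeks. The 4 sections were normal skin as control, skin after ultraviolet radiation (UVR), UVR skin treated with 0.1% Retinol and UVR skin treated with 0.03% 9-cis HPR, a retinoid. Every group other than control thus carried the UVR exposure; its dose and schedule, the vehicle and the number of animals are not given in the sources used here.

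Each group was 1 section, so no comparison below has a replicate or a p-value, and every interval covers counting error only. Control and UVR skin shared 1 capture area and both treated skins shared the other, so where a treated section is set against UVR skin, the treatment and the area cannot be told apart. Groups were read from the labels' upper and lower positions as positions in the image; the spot grid numbers its rows the opposite way, and reading it instead would exchange the groups within each area. Spots with at least 200 unique molecular identifiers (UMIs) were kept, 339 to 647 a section, and the sections held 326095 (control), 2558616 (UVR), 1414976 (retinol) and 1249928 UMIs (HPR). Levels are in CPM, the UMIs of a gene per 1000000 UMIs of all genes in the section or region. For a gene without UMIs whose probes work, 3 counts set the upper limit, which is 9.20 CPM in control skin and 1.17 to 2.40 CPM elsewhere. A spot covers several cells, and fewer cells of a type cannot be told apart from less RNA per cell. Keratinocyte markers were abundant in all sections, as skin should show: those of basal cells (6 genes) summed to 19436 CPM in control, 51338 in UVR, 31626 in retinol-treated and 28300 in HPR-treated skin. Those of suprabasal cells (7 genes) summed to 55064, 16748, 11886 and 19418 CPM in the same order. Hair follicle markers (5 genes) summed to 120 CPM in control skin and at most 1.41 CPM in the other sections.

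Core histones H2A, H2B, H3 and H4 form the protein spool of the nucleosome, and the linker histone H1 binds where DNA enters and leaves it. Their replication-dependent genes are transcribed mainly in S phase, have no introns as a rule, and give short mRNAs that end in a stem-loop bound by SLBP instead of a poly(A) tail, although several of these genes can also make polyadenylated mRNA in cells that have left the cycle. In epidermis, DNA synthesis takes place mainly in the basal layer and the hair follicle, while suprabasal keratinocytes differentiate. The labels name poly(A) RNA as the molecule, but libraries made with ligated probe pairs read an mRNA where the probes bind, so that the absence of a poly(A) tail does not by itself remove it. Core histone genes of a family are near-identical in their coding sequence, whereas H1 subtypes differ more; no identity was computed here. Counts of single core histone members may therefore include their copies, and a level is not compared between genes, because each is read by its own probes.

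RefSeq held a promoter window, 250 bases before to 50 after the start, for 37 of the 42 genes, including all 13 with at least 100 UMIs. The 150 bases just before the start are shown for the members at the extremes of the results below: Hist1h2bk and Hist1h3b, among the most different between UVR and other skin, Hist1h1d, which gave the most UMIs, and Hist1h1a, the only one of the 13 abundant members whose level was not highest in UVR skin. They lie on the plus strand of chromosome 13 at chr13:22035671-22035820, chr13:23752195-23752344, chr13:23554882-23555031 and chr13:23763518-23763667 in that order, upstream of each gene's first base. Hist1h2bj, the second most abundant member, starts back to back with Hist1h2ag, and the 248 bases between both genes (chr13:22042950-22043197, plus strand) are shown whole. Capitals mark matches on either strand to the CCAAT box (CCAAT), the TATA box (TATAAA), the octamer of histone H2B promoters (ATTTGCAT) and the H1 box (AAACACA).
Hist1h2bk: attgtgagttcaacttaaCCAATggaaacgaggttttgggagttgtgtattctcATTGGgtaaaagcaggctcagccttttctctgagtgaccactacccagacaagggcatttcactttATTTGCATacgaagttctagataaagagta
Hist1h3b: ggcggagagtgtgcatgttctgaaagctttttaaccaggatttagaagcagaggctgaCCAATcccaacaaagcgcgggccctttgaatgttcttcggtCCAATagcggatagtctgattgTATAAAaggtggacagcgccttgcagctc
Hist1h1d: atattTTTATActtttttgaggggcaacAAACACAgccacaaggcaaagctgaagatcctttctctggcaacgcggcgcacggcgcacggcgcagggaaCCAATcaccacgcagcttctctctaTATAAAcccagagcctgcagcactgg
Hist1h1a: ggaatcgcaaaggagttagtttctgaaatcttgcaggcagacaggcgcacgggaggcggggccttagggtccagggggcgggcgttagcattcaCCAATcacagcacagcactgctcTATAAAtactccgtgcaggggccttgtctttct
Hist1h2ag-Hist1h2bj: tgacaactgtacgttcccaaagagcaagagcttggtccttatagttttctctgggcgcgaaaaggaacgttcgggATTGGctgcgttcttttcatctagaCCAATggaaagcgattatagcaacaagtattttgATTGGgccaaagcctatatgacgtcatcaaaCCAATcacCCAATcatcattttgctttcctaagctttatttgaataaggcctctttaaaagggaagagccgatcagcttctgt

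The windows of the histone genes carried these short motifs more often than promoters in general. A CCAAT box stood in 33 of 37 member windows (89.2%) against 37.4% of all 32851 windows of the same length, and a TATA box in 22 (59.5%) against 13.6%. The octamer stood in 6 of 10 H2B and 5 of 8 H2A windows and in no window of the other families, against 1.74% of all windows. The H1 box stood in 5 of 6 H1 windows against 7.18% of all windows; Hist1h1a was the H1 gene without it. Among the 4 H2B genes with at least 100 UMIs, Hist1h2bk, Hist2h2bb and Hist1h2bb held the octamer and Hist1h2bj did not. None of the 3 abundant H4 windows (Hist4h4, Hist1h4h, Hist1h4f) held a CCAAT box. No match overlapped a match to another motif, and a match describes letters only.

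Histone UMIs were concentrated in few members. The 4 sections held 22411 histone UMIs, of which 98.38% came from 13 genes with at least 100 UMIs each; another 9 genes had 10 to 99, 10 had 1 to 9, and 10 had none. A gene at 0 may also lack a working probe, since Mcm7, Hat1 and Hells had no UMI and Pcna had 1 in all sections together, genes named after their values were seen. The histone genes with none were Hist1h2aa, Hist1h2ac, Hist1h2ba, Hist1h2be, Hist1h2bf, Hist1h2bg, Hist1h2bh, Hist1h3f, Hist1h4c and Hist1h4d. By family, H1 gave 11547 UMIs, H2B 5537, H4 3711, H3 1522 and H2A 94, and the 13 abundant genes were 4 H1, 4 H2B, 3 H4 and 2 H3 genes with no H2A gene. Hist1h1d alone gave 39.87% of all histone UMIs.

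Over whole sections, histone transcripts were highest in UVR skin. Their summed level was 3198.5 CPM in control (95% Poisson interval 3007 to 3399), 5322 in UVR (5233 to 5412), 2772.5 in retinol-treated (2686 to 2861) and 3063 CPM in HPR-treated skin (2966 to 3161). UVR skin stood 1.66-fold above control (1.56 to 1.77), retinol-treated skin 1.92-fold below UVR (ratio 0.521, 0.503 to 0.540) and HPR-treated skin 1.74-fold below UVR (ratio 0.576, 0.555 to 0.597). The retinol level lay below the interval of control skin and the HPR level within it. Of the 13 abundant members, 12 were highest in UVR skin and 1, Hist1h1a, was highest in control. On the spot-grid reading, which exchanges the sections of each area, the log2 ratio of UVR over control would be -0.73, that of retinol over UVR -0.063 and that of HPR over UVR -0.21.

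**Figure D1:**
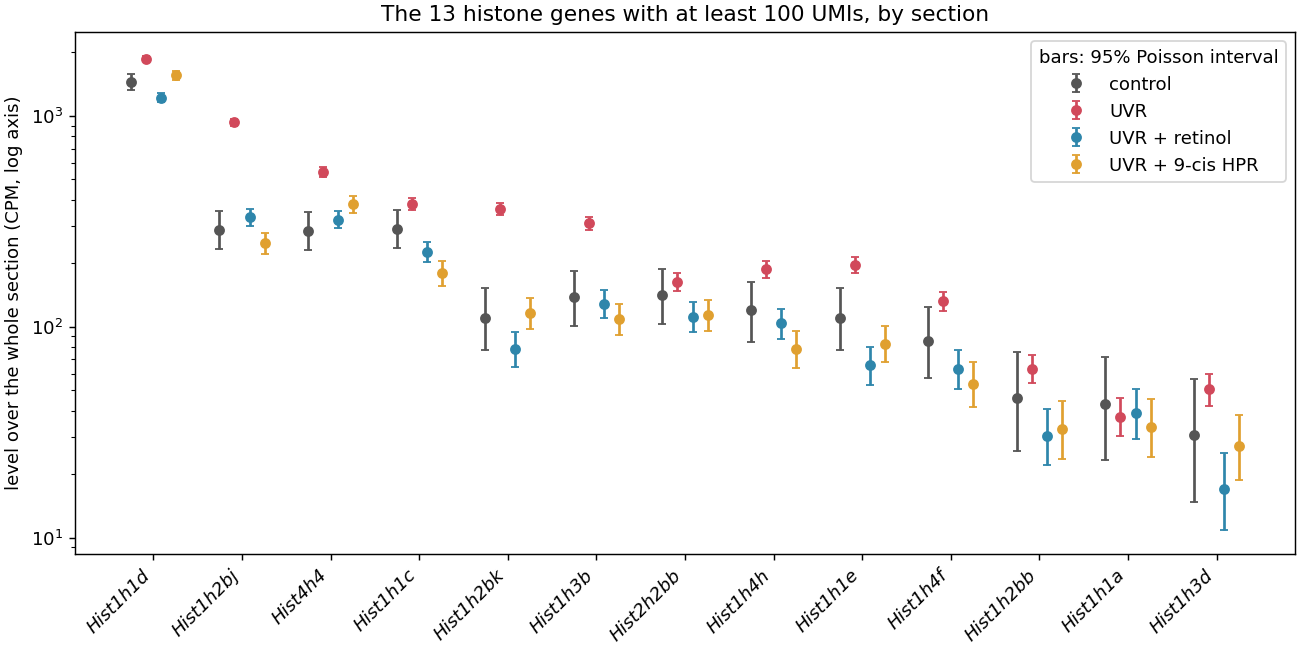
Level of each of the 13 abundant histone genes over the whole section in CPM on a log axis, with 1 point per section and 95% Poisson intervals. UVR skin holds the highest point for 12 genes; for Hist1h1a the intervals of all sections overlap.

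Among linker histones, Hist1h1d (chr13:23555032-23555807), which codes a somatic H1 subtype, stood at 1450.5 CPM in control, 1871 in UVR, 1223 in retinol-treated and 1556 CPM in HPR-treated skin. For this gene UVR skin was 1.29-fold above control (1.17 to 1.42). The ratio of retinol-treated to UVR skin was 0.6535 (0.618 to 0.691) and that of HPR-treated to UVR skin 0.832 (0.789 to 0.877). Hist1h1c (chr13:23738807-23739531), another somatic H1 gene, stood at 291, 382, 226 and 179 CPM in the same order. Hist1h1e (chr13:23621777-23622558) stood at 110, 197, 65.7 and 83.2 CPM, with a ratio of retinol-treated to UVR skin of 0.334 (0.265 to 0.417). Hist1h1a (chr13:23763668-23764412) stood at 42.9, 37.5, 38.9 and 33.6 CPM, and the interval held 1 for its ratios of UVR over control and of either treatment over UVR. Hist1h1b had only 52 UMIs, 36 of them in UVR skin, and the testis gene Hist1h1t had 1.

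Among the H2B genes, Hist1h2bj and Hist1h2bk differed strongly between sections and the other abundant ones less. Hist1h2bj (chr13:22043198-22043658) stood at 288 CPM in control, 931 in UVR, 330 in retinol-treated and 249 CPM in HPR-treated skin. Its UVR level was 3.23-fold above control (2.63 to 4.01) and 3.74-fold above HPR-treated skin (3.32 to 4.23 as a fold lower with HPR). Hist1h2bk (chr13:22035821-22036320) stood at 110, 364, 78.4 and 116 CPM, 3.29-fold higher in UVR than in control skin (2.36 to 4.73) and 4.63-fold lower with retinol than with UVR alone (3.80 to 5.69). Hist2h2bb (chr3:96269700-96270192), from the small cluster on chromosome 3, differed less, at 141, 164, 112 and 114 CPM. Hist1h2bb stood at 46.0, 63.3, 30.4 and 32.8 CPM. The family's sum was 2.54-fold higher in UVR than in control skin (2.20 to 2.95), against 1.32-fold for H1 (1.21 to 1.43), and these intervals do not overlap.

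Among the H3 and H4 genes with at least 100 UMIs, Hist1h3b differed most between UVR and control skin. Hist1h3b (chr13:23752345-23752840), which codes a core H3, stood at 138 CPM in control, 310 in UVR, 129 in retinol-treated and 109 CPM in HPR-treated skin. Hist1h3d (chr13:23575763-23576266) stood at 30.7, 50.4, 17.0 and 27.2 CPM, from 10 to 129 UMIs a section. Hist1h3c was counted in 93 UMIs, 71 of them in UVR skin. Hist4h4 (chr6:136803993-136804431), the lone member on chromosome 6, stood at 285, 542.5, 322 and 381 CPM. Hist1h4h (chr13:23531044-23531478) stood at 120, 188, 104 and 78.4 CPM, and Hist1h4f (chr13:23551286-23551668) at 85.9, 132, 62.9 and 53.6 CPM. As sums, H3 was 2.21-fold higher in UVR than in control skin (1.70 to 2.92) and H4 1.75-fold (1.49 to 2.06).

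H2A genes were barely detected. The most abundant were Hist2h2ac with 42 UMIs (3 in control, 28 in UVR, 5 in retinol-treated and 6 in HPR-treated skin), Hist1h2ag with 28 UMIs (1, 20, 3 and 4) and Hist2h2ab with 13 UMIs (1, 7, 3 and 2). The H2A sum was 21.5 CPM in control skin (8.63 to 44.2) and 23.1 in UVR skin (17.6 to 29.7), a difference not detectable at this depth. It was 7.77 CPM with retinol (3.88 to 13.9) and 13.6 CPM with HPR (7.92 to 21.8). Hist1h2ag shares its upstream stretch, shown above, with Hist1h2bj, which gave 3254 UMIs.

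Exposure to UVR was compared with normal skin for members whose UMIs in both sections came to at least 100, and a difference of at least 2-fold was the size rule. Over the whole section 3 of 13 members (Hist1h2bk, Hist1h2bj and Hist1h3b) passed it upwards in UVR skin, where 12.4% of the 2510 genes measured so well were; none was at least 2-fold lower (7.61% of genes). UVR skin, the deepest section, gave the largest number of UMIs of each member, so the minimum was passed mainly there; these counts are descriptions and support nothing by themselves. The median log2 ratio was 0.65 over the members and 0.09 over all genes, and the interval lay above 1 for 9 members and held 1 for the other 4. Of the 6 basal markers, 2 passed 2-fold upwards in UVR skin and 1 downwards, with a median log2 ratio of -0.03, although their sum was higher. Of the 6 measured suprabasal markers 4 were at least 2-fold lower and 1 higher, and sebaceous gland markers summed to 103 CPM in UVR skin against 1202 in control. Fibroblast markers (6 genes) summed to 1815 CPM in control and 471 in UVR skin, and the 3 measured ones were all at least 2-fold lower in UVR skin. The part of these markers in the histone result was not tested. The summed log2 ratio was 0.44 on the left side of the image and 0.96 on the right.

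Retinol was compared with UVR skin alone, and 7 of 13 members were at least 2-fold lower over the whole section, where 9.11% of 2932 genes were. None was at least 2-fold higher (4.23% of genes). The members passed the minimum mainly through UVR skin, so these counts and their median ratio are descriptions and support nothing by themselves. The interval lay below 1 for 12 members and held 1 for Hist1h1a. The members' median log2 ratio was -1.06 against -0.05 over all genes. The H2B sum was 2.75-fold lower (ratio 0.364, 0.337 to 0.393), the H3 sum 2.52-fold, the H4 sum 1.76-fold and the H1 sum 1.61-fold lower. Of the measured markers, 2 of 5 basal and 3 of 6 skeletal muscle genes were at least 2-fold lower with retinol, and all 3 fibroblast genes were above their UVR level (842 against 471 CPM as sums of the list). Their part in the histone difference was not tested.

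With 9-cis HPR, 7 of 13 members were at least 2-fold lower than in UVR skin, where 9.21% of 2813 genes were. None was at least 2-fold higher (3.41% of genes). Here too the minimum was passed mainly through UVR skin, so the counts and the members' median ratio are descriptions only. The interval lay below 1 for 12 members and held 1 for Hist1h1a. The members' median log2 ratio was -1.09 against -0.13 over all genes; scaling by the median of ratios shifts this comparison by 0.13. The H2B sum was 2.98-fold lower (ratio 0.336, 0.309 to 0.365) and the H1 sum 1.34-fold. All 3 measured fibroblast markers were at least 2-fold higher with HPR (1614.5 against 471 CPM as sums of the list), 3 of 6 skeletal muscle markers were at least 2-fold lower, and all 5 basal markers were below their UVR level, 1 of them by 2-fold; their part was not tested. Along the section the difference was uneven. HPR-treated skin held 3817 histone CPM on the left side of the image and 2251 on the right, against 4465 and 6060 in UVR skin, so that the summed log2 ratio was -0.23 on the left and -1.43 on the right. Retinol and HPR share the UVR section as their comparator, so their ratios are not independent of each other.

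HPR- and retinol-treated skin were also set against each other. None of the 10 members with enough UMIs differed by 2-fold between them, where 0.852% of 2231 genes were higher and 1.84% lower with HPR. Hist1h2bk was 1.48-fold higher with HPR (1.15 to 1.91) and Hist1h1d 1.27-fold (1.19 to 1.36), whereas Hist1h2bj was 1.33-fold lower (1.15 to 1.54), Hist1h4h 1.32-fold (1.02 to 1.73) and Hist1h1c had a ratio of 0.792 (0.665 to 0.943). The interval lay above 1 for 3 members, below 1 for 3 and held 1 for 4. The summed ratio was 1.10 (1.06 to 1.16) with Hist1h1d and 0.972 (0.914 to 1.03) without it. It changed sign along the section, with a log2 ratio of 0.74 on the left side of the image and -0.53 on the right.

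**Figure D2:**
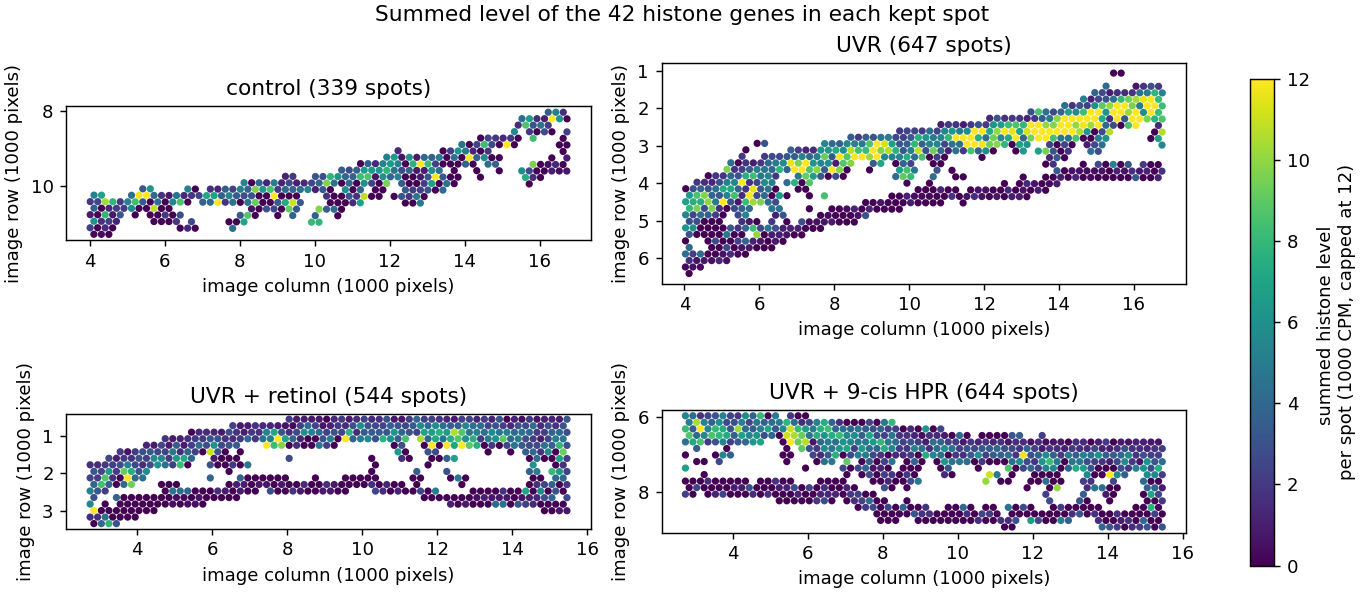
Summed histone level of each kept spot at its place in the image, with 1 panel per section; colour gives the CPM up to a capped top value, and both axes are image pixels. In UVR skin the brightest spots form a band below the upper tissue edge and lie mostly on the right, while in HPR-treated skin the brighter spots lie on the left.

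Histone levels differed strongly with position in the tissue. Spots were binned by their distance below the tissue's upper edge in the image, counted in spacings between neighbouring spots, a description added after the data were seen that needs no clusters. Suprabasal markers were highest in the outermost bin of every section, 87776 CPM in control, 29057 in UVR, 17938 in retinol-treated and 38282 CPM in HPR-treated skin. In control skin histones were highest at the edge, 4071 CPM within 1 spacing (3791 to 4365), and stood at 2283 CPM 2 to 3 spacings below it and 1081 CPM from 6 spacings on. In UVR skin the edge held 4319 CPM (4209 to 4431), and the level reached 11016 CPM 3 to 4 spacings below (10286 to 11784). Both treated sections peaked 2 to 3 spacings below the edge, at 5141 CPM with retinol (4608 to 5718) and 4928 CPM with HPR (4513 to 5372).

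The summed level of UVR and control skin thus differed below the edge more than at it. Similar sums at the edge do not mean similar levels of every member. Within 1 spacing Hist1h1d gave 48.1% of histone UMIs in control (44.55 to 51.65) and 37.9% in UVR skin (36.64 to 39.14). Genes of the replication machinery, a list read below, summed there to 818 CPM in control and 1306 CPM in UVR skin. The ratio of the summed histone levels was 1.06 within 1 spacing of the edge (0.985 to 1.15), 3.31 at 1 to 2 spacings, 4.20 at 2 to 3 and 5.06 at 3 to 4 spacings (3.58 to 7.40). From 6 spacings on, where 67.3% of UVR spots and 68.0% of control spots were muscle, it was 0.951 (0.672 to 1.39). Retinol-treated skin was below UVR skin in every bin, by 1.78-fold at the edge (1.69 to 1.87) and 2.35-fold at 3 to 4 spacings (2.03 to 2.73). HPR-treated skin was 1.65-fold lower at the edge (1.56 to 1.75) and 2.37-fold lower at 3 to 4 spacings (2.03 to 2.78), and from 6 spacings on the interval of its ratio held 1 (0.738 to 1.10). Basal markers were likewise highest in UVR skin: 3 to 4 spacings below the edge they summed to 11544 CPM in control, 58867 in UVR, 15887 in retinol-treated and 20979 CPM in HPR-treated skin, and their part in the result was not tested. In retinol-treated skin 38 spots lay in that section's own topmost row of spots, so its edge is straight there. HPR-treated skin had 16 spots in its own topmost row, control skin 3 and UVR skin 2. Whether such a straight edge is the skin surface was not tested, so distances there may not start at the surface.

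**Figure D3:**
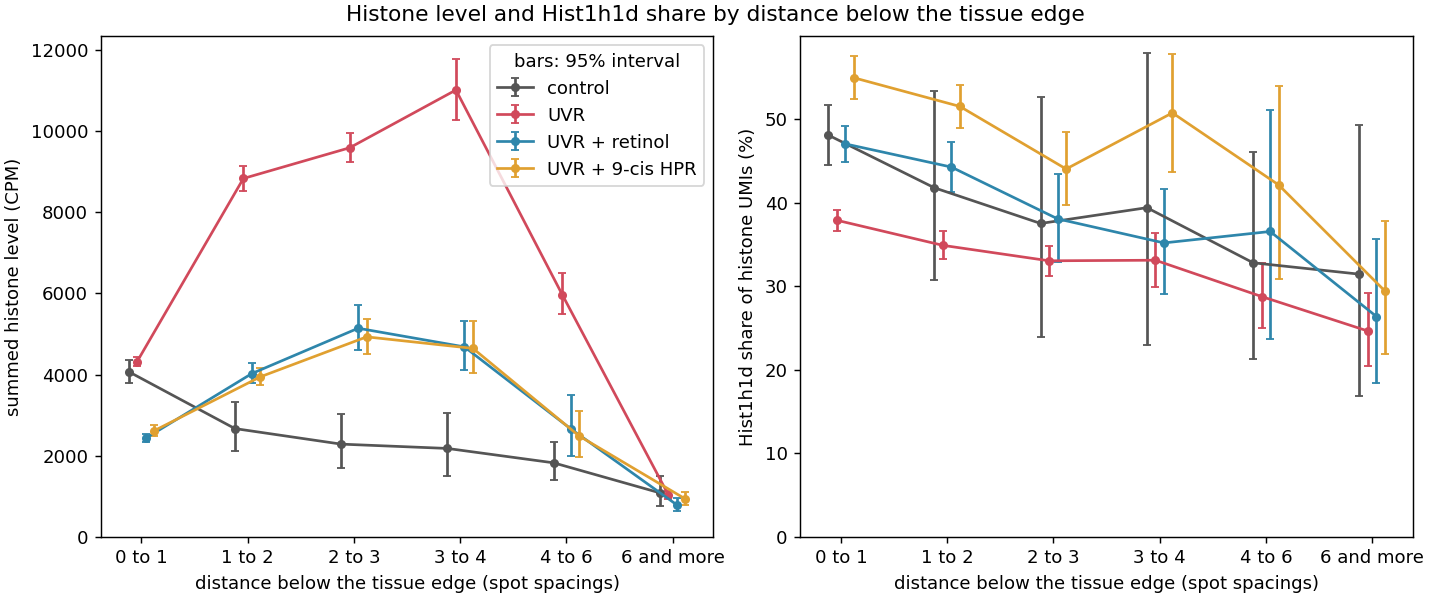
Summed histone level in CPM (left) and Hist1h1d share of histone UMIs in percent (right) against the distance below the upper tissue edge in spot spacings, with 1 line per section and 95% intervals. Control skin is highest at the edge (4071 CPM), UVR skin reaches 11016 CPM at 3 to 4 spacings, and both treated sections peak near 5000 CPM.

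Clustering of the spots on genes other than these histones and the lists named below gave 7 regions. Region 0 was muscle (leading genes Myh1, Myl1 and Casq1) and region 4 was led by Atp6v0d2, Mpeg1 and Trem2. Region 2 was led by Krt77, Fa2h and Scd1, a mix of suprabasal keratin and sebaceous genes, and is left unnamed. Regions 1 (Car2, Adam8, Ticrr), 3 (Mmp11, Foxc1, Sostdc1), 5 (Alox8, Hrnr) and 6 (Krt78, Aqp5, Cdsn) were grouped as the outer layer. These were the regions left over: none reached a median log2 fold of 2 for muscle, sebaceous gland or fibroblast markers. Against the other regions, region 3 had median log2 folds of 0.78 for basal, -2.09 for suprabasal and 1.38 for fibroblast markers. With all genes in the clustering, Mmp11, Foxc1 and Sostdc1 were among the leading genes of a region of 865 spots that passed this limit for sebaceous markers (2.36). Regions followed sections closely: 95 of 96 spots of region 6 came from UVR skin, region 1 held none from control, and 192 of 339 control spots fell in region 2, which leaves 66 control spots with 34637 UMIs and 103 histone UMIs in the outer layer.

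Region 3 was the region of this left-over layer that all sections shared. There the histones stood at 2845 CPM in control (2296 to 3485), 9827 in UVR (9547 to 10112), 4234 in retinol-treated (4032 to 4443) and 4701 CPM in HPR-treated skin (4440 to 4974). The UVR level was 3.45-fold above control (2.81 to 4.29), 2.32-fold above retinol-treated (2.19 to 2.46 as a fold lower) and 2.09-fold above HPR-treated skin (1.96 to 2.23). Among the 9 members with enough UMIs there, UVR over control ran from Hist1h1e at 2.01-fold (0.907 to 5.56) to Hist1h2bj at 15.6-fold (6.09 to 57.5), with only 2 to 45 control UMIs each. They passed the minimum through UVR skin, so the range is conditioned on a high level there. With retinol the 10 measured members ran from Hist4h4, 1.78-fold lower than in UVR skin (1.53 to 2.09), to Hist1h2bk, 5.77-fold lower (4.17 to 8.18). With HPR they ran from Hist1h1d, 1.39-fold lower (1.26 to 1.53), to Hist1h2bj, 5.12-fold lower (4.14 to 6.38). For both treatments the minimum was likewise passed mainly through UVR skin. These values within regions were added after the data were seen. Basal markers in region 3 summed to 19457, 58496, 35093 and 31724 CPM in control, UVR, retinol-treated and HPR-treated skin; their part was not tested.

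Within sections, muscle held the lowest level of most of the 13 abundant members, and the region with the highest level differed. Among regions with at least 10000 UMIs, region 3 was highest for 7 members in UVR skin and 11 in HPR-treated skin, while region 2 was highest for 9 members in control and 8 in retinol-treated skin, where it held 30 spots. Muscle was lowest for 8 members in control, 9 in UVR, 9 in retinol-treated and 7 in HPR-treated skin, not counting members tied at the lowest level. In UVR skin Hist1h2bk stood at 624 CPM in region 3, 586 in region 1, 176 in region 6 and 15.8 in muscle. Hist1h1c spanned less there, at 730.5 CPM in region 3, 394 in region 1, 244 in region 6 and 249 in muscle. Region 1 held 7569 histone CPM in UVR, 2957 in retinol-treated and 3378 CPM in HPR-treated skin. Of the regions led by genes of cornified keratinocytes, region 6 held 2933 CPM in UVR skin. Region 5 held 6640 CPM in 9 UVR spots (5257 to 8275), 1873 CPM with retinol and 2487 CPM with HPR. Muscle held 523 to 794 CPM in every section. There HPR-treated skin stood above UVR skin (ratio 1.49, 1.14 to 1.93, from 93 and 169 histone UMIs), opposite to the whole section. In muscle the interval held 1 for retinol over UVR (0.718 to 1.32) and for UVR over control (0.492 to 1.10).

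In the outer layer as a whole, the histones stood at 2974 CPM in control (2427 to 3607), 6050 in UVR (5947 to 6154), 2988 in retinol-treated (2893 to 3086) and 3336 CPM in HPR-treated skin (3229 to 3446). The layer differs in make-up between sections. In control skin its suprabasal markers summed to 8806 CPM, against 77719 CPM in region 2, which lies outside the layer. In UVR skin the layer held regions 1, 3, 5 and 6, and these markers summed to 19462 CPM. For UVR over control the layer thus does not set like tissue against like. With retinol 8 of 13 members were at least 2-fold lower than in UVR skin, where 9.47% of genes were and 5.21% were higher, led by Hist1h2bk (4.96-fold, 4.05 to 6.13) and Hist1h1e (3.33-fold, 2.63 to 4.26). The least different were Hist1h1a (ratio 0.972, 0.677 to 1.38) and Hist2h2bb (1.59-fold lower, 1.31 to 1.93). With HPR 8 of 13 were at least 2-fold lower, where 9.46% of genes were and 3.1% were higher, led by Hist1h2bj (3.90-fold, 3.46 to 4.41) and Hist1h2bk (3.22-fold, 2.70 to 3.87); the least different were Hist1h1a (ratio 0.869, 0.584 to 1.27) and Hist1h1d (1.25-fold lower, 1.18 to 1.32). For either treatment the members passed the minimum mainly through the UVR spots, so these counts are descriptions and support nothing by themselves. Between HPR and retinol no member reached 2-fold, where 0.778% of genes were higher and 1.76% lower. The ends were Hist1h2bk (1.54-fold higher, 1.19 to 2.00) and Hist1h1e (1.30, 0.961 to 1.77) against Hist1h4h (1.34-fold lower, 1.01 to 1.78) and Hist1h2bj (1.33-fold lower, 1.15 to 1.54).

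For UVR over control the outer layer rested on those 103 control histone UMIs. The members passed the minimum of 100 UMIs through the UVR spots, so that their count past 2-fold, 4 of 12 upwards against 18.2% of genes and 0 downwards against 14%, is a description and supports nothing. The 4 were Hist1h2bj at 9.26-fold (3.61 to 34.0), Hist1h3b at 6.17-fold (1.70 to 51.1), Hist2h2bb at 3.22-fold (0.885 to 26.7) and Hist1h2bk at 2.89-fold (1.23 to 8.92), the first with 4 control UMIs and Hist1h3b and Hist2h2bb with 2 each. At the other end stood Hist1h4h at 1.22-fold (0.556 to 3.34) and Hist1h2bb at 1.23-fold (0.336 to 10.3). Hist1h4f and Hist1h3d had no UMI in those control spots and 331 and 119 in UVR spots. With region 2 added to the outer layer, 3 of 13 members reached 2-fold upwards with UVR (14.7% of genes) and none at least 2-fold lower (7.66% of genes), and the summed ratio was 1.61 (1.51 to 1.72) in place of 2.03 (1.68 to 2.49).

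**Figure D4:**
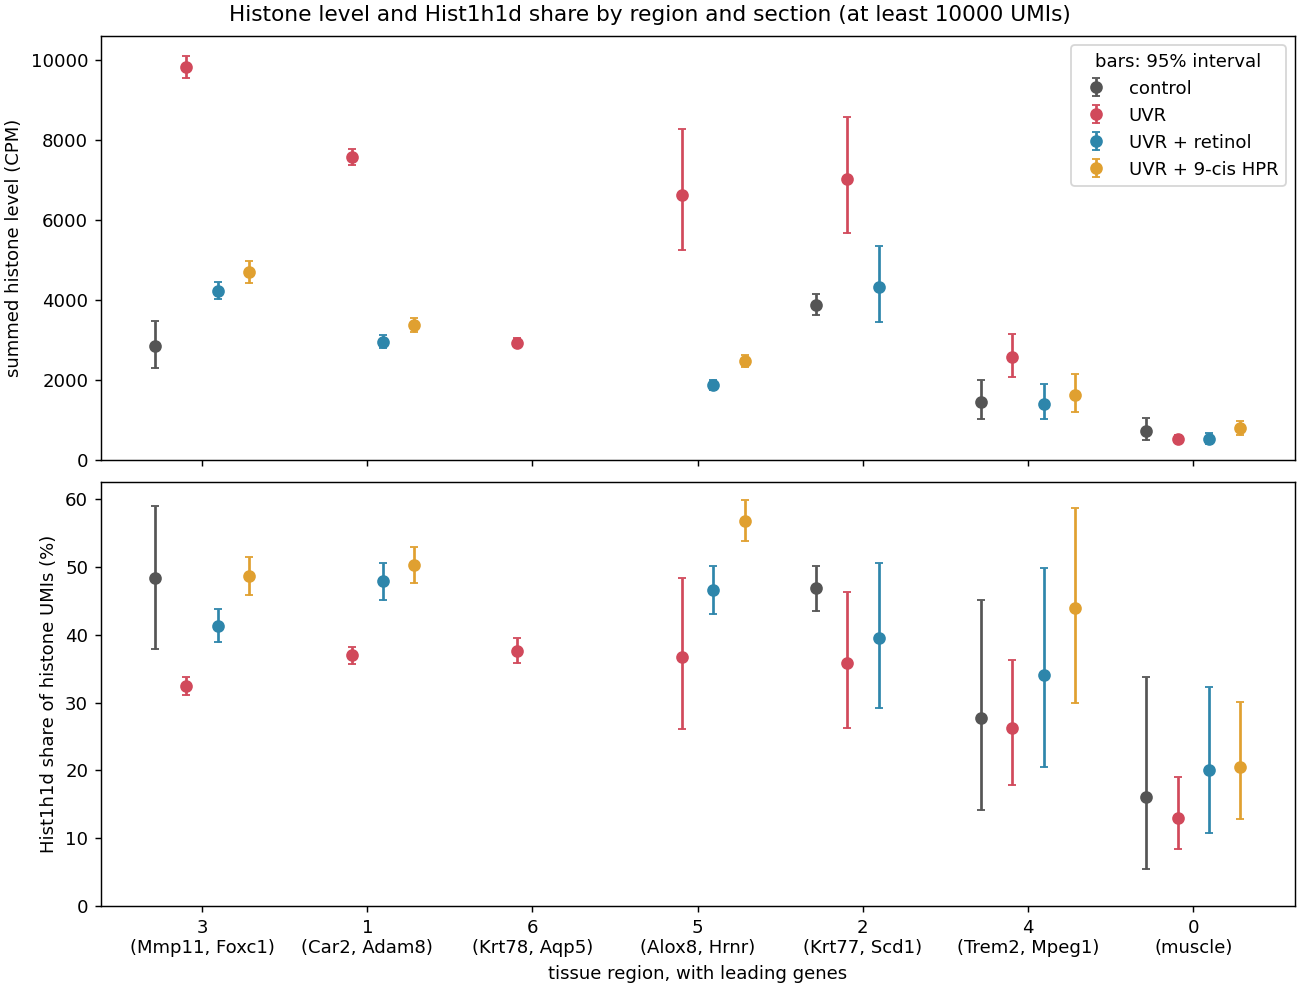
Summed histone level in CPM (upper panel) and Hist1h1d share of histone UMIs in percent (lower panel) by tissue region and section, for regions with at least 10000 UMIs in a section, with 95% intervals. In region 3 the UVR point at 9827 CPM stands above the other sections, and the Hist1h1d share is lowest in muscle.

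The part of the histone UMIs that came from Hist1h1d differed between sections and with position. It was 45.35% in control (95% Clopper-Pearson interval 42.3 to 48.4), 35.15% in UVR (34.35 to 35.96), 44.10% in retinol-treated (42.5 to 45.7) and 50.81% in HPR-treated skin (49.2 to 52.4). The UVR share was below that of each other section, and its interval met none of theirs. The same order of UVR against the treated sections held in the outer layer, with 35.50% in UVR, 44.71% in retinol-treated and 51.67% in HPR-treated skin. In UVR skin the share was lower away from the edge, from 37.9% (36.6 to 39.1) within 1 spacing to 28.7% (25.0 to 32.7) at 4 to 6 spacings. In HPR-treated skin it went from 54.9% (52.4 to 57.5) to 42.1% (30.9 to 54.0), and these intervals overlap. The course there was not steady, with 44.0% at 2 to 3 spacings and 50.7% (43.65 to 57.8) at 3 to 4. In each section the share was lower in muscle than in region 3, and the intervals did not overlap: 13.02% (8.34 to 19.0) against 32.4% (31.1 to 33.8) in UVR skin and 20.4% (12.8 to 30.1) against 48.7% (45.8 to 51.5) in HPR-treated skin. In UVR skin regions 1, 2 and 5 held 36.95%, 35.79% and 36.71%. Without Hist1h1d, UVR skin was 1.97-fold above control (1.81 to 2.15), retinol-treated skin 2.23-fold and HPR-treated skin 2.29-fold below UVR skin.

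At the level of spots, the same order was seen after each spot was thinned to 200 UMIs. In the outer layer 65.1% of UVR spots held a histone UMI (60.2 to 69.8), against 43.9% with retinol (38.2 to 49.7), 49.6% with HPR (44.4 to 54.8) and 40.9% of control spots (29.0 to 53.7). Muscle spots, which should synthesise little DNA, gave a background of 10.2% in UVR, 11.9% in retinol-treated, 18.6% in HPR-treated and 17.2% in control skin. Unthinned, the outer shares were 93.5%, 92.4%, 84.9% and 60.6% in UVR, retinol-treated, HPR-treated and control skin, at median depths of 2643, 2596, 1450 and 351.5 UMIs. Unthinned muscle shares were 50.9%, 40.3%, 36.1% and 55.2%, at median depths of 1679, 706.5, 556 and 740 UMIs.

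Other genes of the histone supply were read from fixed lists, and the genes named from them were chosen after their values were seen. Of 30 genes of the replication machinery, 8 had at least 100 UMIs for UVR over control. Of these 5 were at least 2-fold higher and none lower (12.4% and 7.61% of all genes). With retinol 5 of 9 (9.11% of all genes) and with HPR 7 of 8 (9.21%) were at least 2-fold lower than in UVR skin, none higher (4.23% and 3.41%). The median log2 ratios of the list were 1.27 for UVR over control, -1.28 for retinol over UVR and -1.38 for HPR over UVR. These genes passed the minimum mainly through UVR skin, so the counts and medians are descriptions and support nothing by themselves. Mcm2, a subunit of the replicative helicase, stood at 261 CPM in control, 587 in UVR, 235 in retinol-treated and 240 CPM in HPR-treated skin, and Tk1, the S-phase thymidine kinase, at 52.1, 136, 55.8 and 40.0 CPM. These are whole-section values. In the outer layer, with its few control UMIs, 1 of 8 genes of the replication machinery reached 2-fold for UVR over control (18.2% of all genes). There 2 were below 1 and the median log2 ratio was 0.42. Of these 2, Rfc3 had no UMI in the control spots and 118 in UVR spots. Its 0 was read as 3 counts, 86.6 CPM, so its place below 1 comes from that reading, which also enters the median. With retinol 5 of 8 were at least 2-fold lower than in UVR skin (9.47% of all genes) and with HPR 7 of 8 (9.46%). Of the 12 histone chaperones Asf1b and Mcm2, which is on both lists, were measured. Over whole sections both passed 2-fold upwards for UVR over control and downwards for either retinoid over UVR. In the outer layer Mcm2 did not reach 2-fold for UVR over control. Asf1b had no UMI in those control spots and 171 in UVR spots, so its ratio could not be measured there. Of 20 genes of G2 and mitosis, Ube2c alone was measured well enough, at 55.2, 156, 60.8 and 48.0 CPM.

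The genes that make histone mRNA were represented by few measured genes. Slbp, which codes the stem-loop binding protein, stood at 990.5 CPM in control, 969 in UVR, 1142 in retinol-treated and 1115 CPM in HPR-treated skin, and none of the 2 or 3 measured genes of its list of 13 reached 2-fold in either direction. Of 11 replication-independent histone genes, 6 were measured for UVR over control. Cenpa, the histone of centromeres, was 2.73-fold higher (1.95 to 3.93), and H3f3b, which codes the replacement histone H3.3, was 2.06-fold lower (1.21 to 3.36). With HPR 2 of 6, Cenpa and H2afy, were at least 2-fold lower than in UVR skin (9.21% of all genes), and with retinol none of 7 (9.11%). H2afz, the most counted gene of the list, stood at 1193, 1620, 1148 and 969 CPM in control, UVR, retinol-treated and HPR-treated skin.

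Across the 22 combinations of region and section with at least 10000 UMIs, the summed histone level followed the replication machinery, with a Pearson r of 0.959 and a Spearman rho of 0.913. Without Hist1h1d they were 0.974 and 0.947, and against the genes of G2 and mitosis 0.903 and 0.884. These describe the points, which share libraries, sections and depth, and no p-value was computed. UVR skin gave the 4 highest points, in regions 3, 1, 2 and 5.

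**Figure D5:**
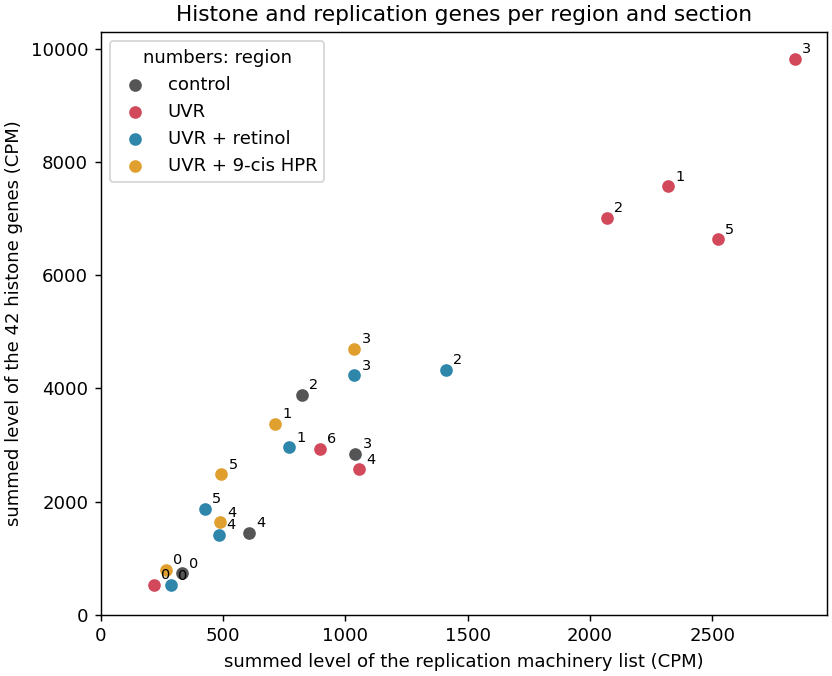
Summed histone level against the summed level of the replication machinery list, both in CPM, with 1 point per region and section of at least 10000 UMIs; colours give sections and numbers give regions. The 4 highest points are UVR skin, led by region 3 at 9827 histone CPM, and muscle (region 0) lies lowest in every section.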

How the data were processed

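Per the labels' protocols, fresh-frozen skin sections in OCT were profiled with probe-based Visium chemistry, the one sold for FFPE material. The authors deposited raw UMI counts per gene and spot, 2 capture areas with 2 sections each, and the submitters' processing notes list Space Ranger 2.0.0, Seurat 4.1.0 and the build mm10. Sections were split at image rows 7200 and 4650. The areas share 430 spot barcodes; barcodes repeat between areas and spots were kept apart by area. Spots with at least 200 UMIs were kept. Counts were summed, scaled to CPM and compared as ratios with exact Clopper-Pearson 95% intervals; single genes needed 100 UMIs over both sections, and a level of 0 was read as at most 3 counts. Spots were clustered with scanpy 1.11.5 (Python 3.11.15). The members, lists and layer rule were chosen with earlier results of these data known. Named members are the 3 with most UMIs per family and, in each outer-layer comparison, the 2 highest and 2 lowest ratios; others are named to account for them. The distance bins and member values within regions were added after the data were seen. Code was tested on simulated counts.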

Additional observations from a re-analysis of the deposited data

How the results depend on the processing

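Values here are summed log2 ratios, in whole sections 0.73 for UVR over control, -0.94 for retinol over UVR, -0.80 for HPR over UVR and 0.14 for HPR over retinol, and in the outer layer 1.03, -1.02, -0.86 and 0.16, or members past 2-fold. Of the planned and added alternatives, 34 summed values moved by less than their interval, 36 by more, and 10 changed sign; the cause was not tested unless the setting itself removes genes or spots. The spot-grid reading, which exchanges the groups within each area by construction, gave -0.73, -0.0626, -0.21 and -0.14 in whole sections and -1.03, 0.17, 0.0070 and -0.16 in the outer layer. In whole sections it left 0 of 13 members higher (7.61% of genes) and 3 lower (12.4%) for UVR over control. It left 0 of 9 lower for retinol over UVR (7.43%) and 0 of 10 for HPR over UVR (8.04%). In the outer layer this reading gave 0 of 12 higher (14%) and 4 lower (18.2%) for UVR over control. For retinol over UVR it gave 3 of 8 higher (16.4%) and 1 lower (13.4%). For HPR over UVR it gave 3 of 8 higher (22.5%) and 0 lower (12.2%). It turns the sign of every member's UVR-over-control ratio; members at least 2-fold different in the outer layer whose sign turned were Hist1h2bj (-3.21, 1.25 and 1.66 for UVR over control, retinol over UVR and HPR over UVR), Hist1h3b (-2.63, 1.06 and 1.28), Hist1h2bk (-1.53) and Hist2h2bb (-1.69) for UVR over control, and Hist1h1c (0.0319) for HPR over UVR. Image sides differed. In whole sections the left side gave 0.44 with 1 of 10 members higher for UVR over control (12.2% of genes), -0.23 with 2 of 10 lower for HPR over UVR (7.22%) and 0.74 with 2 of 9 higher for HPR over retinol (1.85%), and the right side 0.96 with 5 of 11 (16.1%), -1.43 with 11 of 12 (11.9%) and -0.53. In the outer layer the left side gave -1.09 for retinol over UVR, -0.30 with 2 of 10 lower for HPR over UVR (6.23%), 0.79 with 2 of 7 higher for HPR over retinol (2.32%) and -0.00036 for Hist2h2bb in UVR over control; the right side gave -0.95, -1.50 and -0.55 with 1 of 8 lower (1.46%). Without Hist1h1d the values were 0.98, -1.16, -1.20 and -0.0409 in whole sections and 1.32, -1.24, -1.27 and -0.0351 in the outer layer. Without the 50 most abundant genes in the total they were -1.002 for retinol over UVR and 0.21 for HPR over retinol in whole sections. In the outer layer they were then 1.32 for UVR over control with 7 of 12 members higher (26.6% of genes), -1.09 for retinol over UVR and 0.24 for HPR over retinol. Median-of-ratios scaling gave -0.67 and 0.23 for HPR over UVR and over retinol in whole sections and -0.72 and 0.27 in the outer layer; equal layer weights gave 0.83 for UVR over control, -0.67 for HPR over UVR and 0.23 for HPR over retinol. A minimum of 20 UMIs gave 7 of 18 members higher for UVR over control (12.9% of genes) in whole sections. It gave 12 and 11 of 18 lower there for retinol and HPR over UVR (13.3% and 14.4% of genes). In the outer layer it gave 5 of 17 lower for UVR over control (51.1% of genes) and 13 of 18 lower for retinol over UVR (13.1%). Of the 5, Hist1h1b, Hist1h3c and Hist1h3a had no UMI in those control spots. Their 0 was read as 3 counts, 86.6 CPM, and they count as lower only through that reading. Genes at 0 in control enter the 51.1% in the same way, so neither value shows lower levels in UVR skin. For UVR over control in the outer layer, spots of at least 500 UMIs gave 1.33 with 1 of 12 members lower (23.5% of genes). Equal total UMIs left 0 of 1 measured member higher there (20.4%). Finer clustering gave 0.61 with 2 of 12 higher (17.5%) and clustering with all genes 0.33 with 2 of 10 higher (16.9%). Adding the Krt77- and Scd1-rich region to the outer layer gave 0.69. Clustering with all genes gave -0.77 for HPR over UVR and 0.25 for HPR over retinol there. Leaving out Hist1h1d and adding that region were chosen after seeing the data. Unthinned, the whole-section share of spots with a histone UMI was 70.2% in control, 77.0% in UVR, 70.0% in retinol-treated and 65.7% in HPR-treated skin, against 41.0%, 47.3%, 32.7% and 37.3% thinned. Depth limits the outer layer of control skin, with 103 histone UMIs. No paired analysis was possible because each group is 1 section and no result comes from a test.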
